A study of Mus musculus with 9 samples.

Results

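The interferon regulatory factors (IRFs) were described in mouse bone marrow-derived macrophages (BMDMs) as the 8 genes Irf1, Irf2, Irf3, Irf4, Irf5, Irf7, Irf8 and Irf9. They were found by symbol, and all 8 had a row among the 55655 rows of each expression table. Marrow came from the femur and tibia of wild type C57BL/6 mice aged 6 to 8 weeks, and all cells were grown with M-CSF at 10 ng/mL for 7 days. M0 macrophages received nothing further. M1 macrophages were polarized with LPS and IFN-γ, and M1 + PBM macrophages received the same LPS and IFN-γ together with photobiomodulation (PBM), which is irradiation with near-infrared laser light. RNA of M1 and M1 + PBM cells was examined after 12 h of induction. Each condition had 3 libraries. The study's text describes independent repeats of the experiment, while the labels do not say whether libraries came from separate animals or cultures, and p-values measure the spread between these samples.

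IRFs share an N-terminal DNA-binding domain that reads the interferon-stimulated response element (ISRE). IRF3, IRF5 and IRF7 are activated by kinases downstream of Toll-like and nucleic acid sensors and switch on type I interferon and inflammatory cytokine genes. IFN-γ induces genes, IRF1 among them, through the gamma-activated site (GAS). IRF9 is the DNA-binding subunit of ISGF3, the complex that type I interferon activates. IRF8 specifies the myeloid lineage, IRF4 acts in alternative activation and lymphoid cells, and IRF2 competes with IRF1 for DNA.

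The sequences before the start sites were searched for both elements, because IRFs read the ISRE and IFN-γ induces genes through the GAS. All 8 members had an entry in the RefSeq promoter table (GRCm38.p6, 250 bases before to 50 after each start site). The ISRE core was written GAAANNGAAA and the GAS core TTCNNNGAA, both read on both strands. The former stood in 3.44% and the latter in 8.30% of the 32851 windows of 300 bases, and both stood in 0.454%. A GAS core was found for Irf1, Irf2 and Irf8, and an ISRE core for Irf2 alone. The windows of Irf3, Irf4, Irf5, Irf7 and Irf9 held neither, which says only that these letters were not there. The stretches with matches, and that before the Irf7 start site because Irf7 differed most between conditions, read 5′ to 3′ on the gene's strand as follows, with matched cores in capitals.
Irf1, chr11:53769898-53769957, plus strand: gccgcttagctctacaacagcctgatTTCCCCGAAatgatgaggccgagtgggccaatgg
Irf2, chr8:46739495-46739554, plus strand: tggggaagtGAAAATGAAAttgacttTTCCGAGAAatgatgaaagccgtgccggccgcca
Irf8, chr8:120736170-120736229, plus strand: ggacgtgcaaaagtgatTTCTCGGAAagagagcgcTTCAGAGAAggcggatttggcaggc
Irf7, chr7:141266425-141266544, minus strand: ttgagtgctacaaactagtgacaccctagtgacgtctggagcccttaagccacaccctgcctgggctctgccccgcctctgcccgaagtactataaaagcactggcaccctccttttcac

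Counted from the start site, with −1 the base just before it, the Irf1 core lay at −90 to −82. The Irf2 stretch held the ISRE core at −241 to −232 and the GAS core at −224 to −216. Irf8 had a pair of GAS cores, at −171 to −163 and at −153 to −145. A match is a description of letters and not a measured binding site.

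Expression was deposited as FPKM, that is fragments per kilobase of transcript, scaled to library depth, so that levels can be compared between genes. Between 11516 and 14065 rows per library had an FPKM of at least 1, and the steps of low values put the depth at an estimated 30750000 to 41990000 fragments. All 7 macrophage markers were expressed, with summed FPKM of 5263 to 10143. Among markers of other cell types, those under 1 in every library were 6 of 7 dendritic cell markers (Itgax was the exception) and 6 of 7 lymphoid and plasma cell markers (Sdc1 was the exception), all 5 erythroid markers and 5 of 7 neutrophil markers. Of 5 stromal markers, 1 was under 1 in every M0 library, 2 in every M1 library and 1 in every M1 + PBM library. Flt3, which defines dendritic cell precursors, was listed at 0 in every library. Summed FPKM of the neutrophil markers was 1.44 to 2.39 in M0, 8.94 to 28.1 in M1 and 6.44 to 15.0 in M1 + PBM. Most of it was S100a8, while its partner S100a9 was listed at 0 in all 9 libraries, where an exact 0 may be a failed estimate. The summed FPKM of 5 M1 markers was 979.5 to 1110 in M1, 731.6 to 997.1 in M1 + PBM and 3.21 to 24.4 in M0.

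M0 replicate 3 stood apart from the other M0 libraries. It had the highest M0 value of 24 of 24 ISGF3 and IRF7 target genes, by a median of 2.09 on the log2(FPKM + 1) scale, against 39.0% of the 13915 rows kept, which reached an FPKM of 1 in 3 or more of the 9 libraries. It was also highest for 5 of 5 M1 markers, by a median of 1.46, and for 18 of 22 IRF1 and IRF8 target genes, by a median of 0.80. The summed FPKM of 5 stromal markers was 181.2 in this library and 6.49 and 5.28 in M0 replicates 1 and 2, against 8.42 to 12.1 in M1 and 3.32 to 25.8 in M1 + PBM. Among the members, its Irf7 was 11.3 times, its Irf1 2.37 times and its Irf9 1.90 times the mean of the other M0 libraries, while Irf8 was 0.506 and Irf4 0.435 times that mean. The part of stromal cells in these values was not tested. Differences of the members from M0 are therefore given with and without it.

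The first comparison asked how IRF expression in M1 differed from that in M0. Because M0 was deposited in a separate table, no test was run across the tables, and differences are given with the overlap of the libraries. Irf7 and Irf1 were higher in M1, with no overlap of the libraries and a difference of the means of at least 1 on the log2(FPKM + 1) scale, and no member was lower by as much. These were 2 of the 7 members among the 13915 rows kept, which did not hold Irf4. Of those rows, 7.81% were higher and 13.7% lower by the same rule. With any size of difference, 4 members (Irf1, Irf2, Irf7 and Irf9) were higher without overlap, where 15.6% of all rows were, and Irf3 was lower, where 50.6% were. Without M0 replicate 3, Irf7, Irf1 and Irf9 were at least 1 higher (8.82% of all rows) and Irf8 at least 1 lower (14.6%). In RNA of whole cultures, fewer cells of a type and less RNA per cell cannot be told apart. The median of all rows lay at −0.34 for M1 and −0.27 for M1 + PBM relative to M0, and median-of-ratios scaling of the libraries brought it to 0.042 and 0.040.

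Irf7, which amplifies type I interferon production, had FPKM of 1.53, 0.93 and 13.84 in M0 and of 198.77, 153.17 and 289.80 in M1. In M1 + PBM it had FPKM of 190.22, 156.78 and 219.17. The lowest M1 library was thus far above the highest M0 library. Mean FPKM was 5.43 ± 7.29 in M0, 213.9 ± 69.6 in M1 and 188.7 ± 31.2 in M1 + PBM (n = 3, SD). The difference of M1 from M0 was 5.64 on the log2(FPKM + 1) scale, a 39.4-fold difference of mean FPKM. Without M0 replicate 3 it was 6.56, or 174.5-fold, so the size of the fold rested on that library and the direction did not. In rank of FPKM, Irf7 stood at 12301 and 13853 in M0 replicates 1 and 2, at 2843 in M0 replicate 3 and at 119 to 218 in M1 libraries.

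Irf1, a factor induced by IFN-γ, had FPKM of 10.76, 10.86 and 25.63 in M0, of 50.75, 65.54 and 32.01 in M1 and of 41.76, 47.59 and 43.42 in M1 + PBM. Both activated conditions lay above all M0 libraries. The difference of M1 from M0 was 1.65 on the log2(FPKM + 1) scale, with mean FPKM of 15.8 ± 8.56 and 49.4 ± 16.8 (SD, n = 3), and 2.04 without M0 replicate 3. The spread among M1 libraries was wide, with replicate 2 at 2.05 times replicate 3, whereas the M1 + PBM libraries lay within 1.14-fold (44.3 ± 3.0).

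Irf9, the ISGF3 subunit, had FPKM of 5.06, 5.22 and 9.75 in M0, of 13.28, 10.79 and 15.15 in M1 and of 12.64, 12.39 and 14.85 in M1 + PBM. It was higher in M1 than in M0 without overlap, by 0.92 on the log2(FPKM + 1) scale or 1.96-fold in mean FPKM. Without M0 replicate 3 the difference was 1.18, and with median-of-ratios scaling 1.36, so that Irf9 would then also pass a difference of 1.

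Irf2, the repressor that competes with IRF1, had FPKM of 9.54, 8.98 and 8.21 in M0, of 10.69, 10.66 and 11.87 in M1 and of 11.84, 11.77 and 13.01 in M1 + PBM. The libraries of M0 and M1 did not overlap, and the difference was small, at 0.29 on the log2(FPKM + 1) scale (0.23 without M0 replicate 3 and 0.74 after median-of-ratios scaling).

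Irf3, a constitutive factor activated by phosphorylation, had FPKM of 8.43, 8.50 and 9.17 in M0, of 6.10, 6.19 and 5.77 in M1 and of 6.14, 6.61 and 7.68 in M1 + PBM. It was lower in M1 without overlap, by −0.47 on the log2(FPKM + 1) scale (−0.43 without M0 replicate 3). This lay close to the median of all rows, and after median-of-ratios scaling the difference was −0.02 for M1 and 0.046 for M1 + PBM, where the direction turned.

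Irf8, a lineage factor of myeloid cells, had FPKM of 15.18, 27.60 and 10.83 in M0, of 8.03, 6.87 and 14.88 in M1 and of 9.50, 7.75 and 13.89 in M1 + PBM. Its mean was lower in M1 than in M0 by −0.76 on the log2(FPKM + 1) scale, but the libraries overlapped (−0.29 after median-of-ratios scaling). The overlap rested on replicate 3 of M0 and of M1. Without M0 replicate 3 the difference was −1.05, and without M1 replicate 3 it was −1.06, in each case with no overlap. Summed FPKM of the dendritic cell markers was 89.9, 70.9 and 20.3 in the M0 libraries, nearly all of it Itgax, and its part in the Irf8 values was not tested.

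Irf5, which drives inflammatory cytokine genes downstream of MyD88, had FPKM of 45.77, 41.10 and 36.06 in M0, of 27.79, 40.07 and 50.53 in M1 and of 30.66, 40.92 and 55.79 in M1 + PBM. The conditions overlapped fully. The difference of M1 from M0 was −0.087 on the log2(FPKM + 1) scale, −0.17 without M0 replicate 3 and 0.41 after median-of-ratios scaling, so no direction can be given. Within M1 and within M1 + PBM alike, the highest library was 1.82 times the lowest.

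Irf4 was the lowest member in every condition, with FPKM of 0.67, 0.24 and 0.20 in M0, of 0.20, 0.22 and 0.078 in M1 and of 0.078, 0.049 and 0.12 in M1 + PBM. At most 9.72 to 98.0 fragments stood behind each value, by an upper estimate from the longest transcript. The libraries of M0 and M1 overlapped, with a difference of −0.31 on the log2(FPKM + 1) scale without M0 replicate 3, and no fold is given for such low values.

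**Figure D1:**
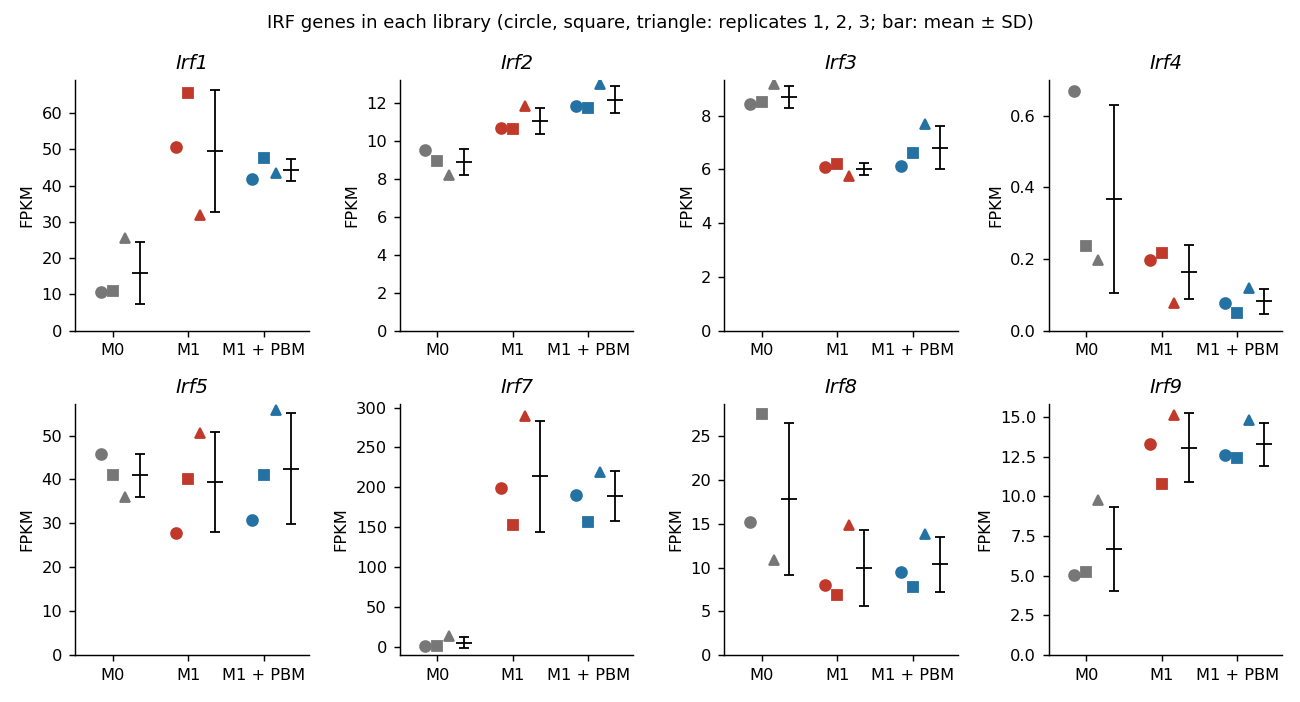
FPKM of the 8 IRF genes in the 9 libraries, one panel per gene with its own linear axis. Circles, squares and triangles are replicates 1, 2 and 3, and the bar is the mean ± SD of 3 libraries. Irf7 and Irf1 lay above all M0 libraries in both activated conditions, and the M1 and M1 + PBM points overlapped for every gene.

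M1 + PBM was set against the same M0 libraries, so the values are not independent of those for M1. Irf7 (5.50 on the log2(FPKM + 1) scale) and Irf1 (1.54) were at least 1 higher without overlap and no member was lower by as much, where 7.13% and 10.3% of all rows were. With any size of difference, Irf1, Irf2, Irf7 and Irf9 were higher without overlap (15.9% of all rows) and Irf3 lower (46.2%). Irf4 was also lower without overlap, but it was under the FPKM minimum of those rows, so no share stands beside it. Without M0 replicate 3 the difference was 6.41 for Irf7, 1.94 for Irf1 and 1.21 for Irf9, each at least 1 (7.98% of all rows). It was 0.36 for Irf2, −0.28 for Irf3, −0.41 for Irf4, −0.071 for Irf5 and −0.95 for Irf8.

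**Figure D2:**
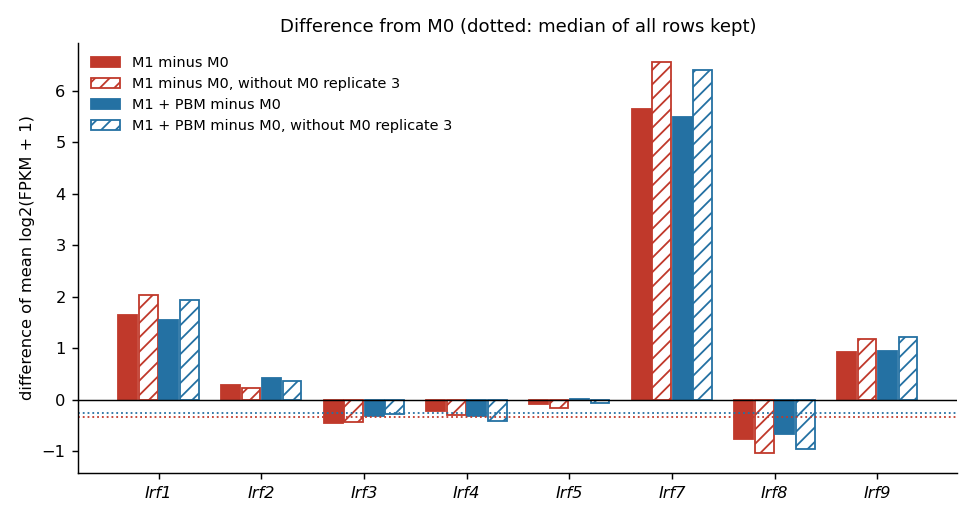
Difference of mean log2(FPKM + 1) from M0 for each IRF gene, in M1 (red) and M1 + PBM (blue), with all 3 M0 libraries (filled) and without M0 replicate 3 (hatched). Dotted lines mark the median of all rows, −0.34 and −0.27. Irf7 stood at 5.64 and 5.50 and Irf1 at 1.65 and 1.54 with all libraries.

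The order of the members by mean FPKM differed between M0 and the activated conditions. In M0, Irf5 was highest and separate from Irf8 and Irf1, which overlapped. Irf2, Irf3, Irf9 and Irf7 followed, each overlapping the next except Irf7, and Irf4 was last. Every overlap in M0 rested on replicate 3, and without it the order by mean FPKM was the same. In M1 and in M1 + PBM the order was the same in both. Irf7 came first, apart from Irf1 and Irf5, which overlapped, and these were apart from Irf9, Irf2 and Irf8, which overlapped in turn. Irf3 and then Irf4 followed, each separate from the one before.

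The share of Irf7 in the summed FPKM of the 8 genes was 0.895% to 12.2% in M0, 52.2% to 69.0% in M1 and 55.2% to 62.8% in M1 + PBM. The 12.2% was M0 replicate 3, while M0 replicates 1 and 2 had 1.57% and 0.895%. The share of Irf5 was 31.7% to 47.2% in M0, 8.80% to 13.7% in M1 and 10.1% to 15.2% in M1 + PBM. The sum itself was 96.9 to 113.7 in M0, 293.5 to 420.1 in M1 and 283.9 to 367.9 in M1 + PBM. Without Irf7 it was 95.4 to 102.5, 116.8 to 140.3 and 112.6 to 148.8, so most of the larger sum was Irf7.

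**Figure D3:**
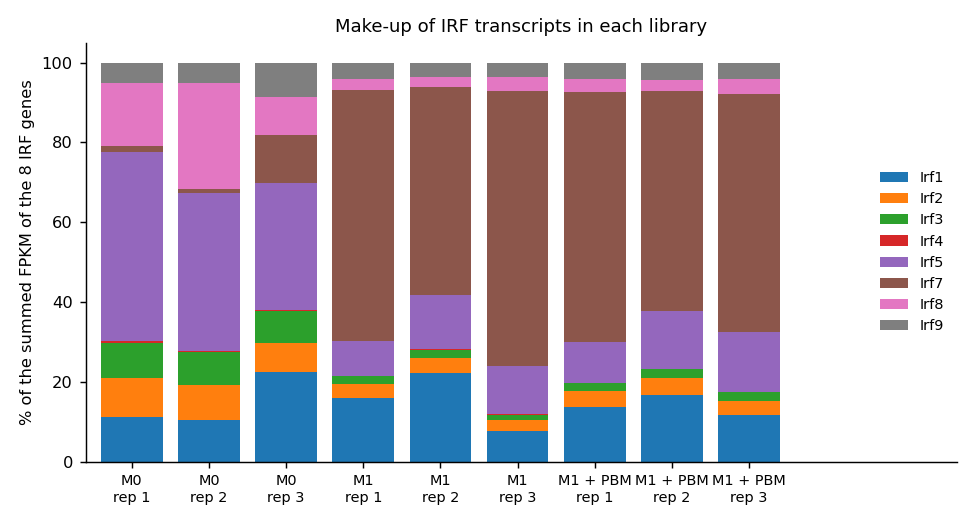
Share of each IRF gene, in percent, in the summed FPKM of the 8 genes in each of the 9 libraries. Irf7 made up 0.895% to 12.2% in M0 libraries, with the 12.2% in M0 replicate 3, and 52.2% to 69.0% in M1 and M1 + PBM libraries.

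The second comparison asked whether PBM altered IRF expression in M1 macrophages. It was tested with limma on log2(FPKM + 1) over the 12238 rows that reached an FPKM of 1 in 3 or more of the 6 libraries. Irf4 was under this minimum, and the other 7 members were tested. By the thresholds of the study for differentially expressed genes, p up to 0.05 without adjustment and a log2 fold change of 1 or more in size, 0 of 7 members were called, where 0.261% of all rows were (0.0245% higher and 0.237% lower). The study itself reported many more genes at these thresholds, most of them upregulated. Why this fit called fewer, most of them lower, was not tested. No tested member had an unadjusted p of at most 0.05 whatever its fold change (4.44% of all rows) or a Benjamini-Hochberg adjusted p under 0.05 (0.00817%, which is 1 row). The libraries of M1 and M1 + PBM overlapped for all 8 members, while 11.0% of all rows had no overlap (8.51% higher and 2.52% lower with PBM). Over the 7 members the 95% intervals ran from 0.595-fold to 1.79-fold of FPKM + 1. Changes of 2-fold or more were thus outside the interval of each tested member.

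Irf7 had a log2 fold change of −0.14 with PBM (SE 0.25, 95% interval −0.75 to 0.46, limma adjusted p = 0.933). The changes between libraries of the same replicate number were −0.063, 0.033 and −0.40, so the sign was mixed. Irf1 had a log2 fold change of −0.10 (SE 0.25, 95% interval −0.70 to 0.50, limma adjusted p = 0.957). Its changes by replicate number were −0.28, −0.45 and 0.43, and M1 replicate 3 had the lowest Irf1 of the 6 libraries. Without M1 replicate 3 the Irf1 log2 fold change was −0.38 with an unadjusted limma p of 0.0417, and without M1 replicate 2 it was 0.13. The direction for Irf1 thus rested on single M1 libraries.

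Irf2, Irf3 and Irf5 were higher with PBM in all 3 pairs of the same replicate number, which held for 25.5% of all rows, and no tested member was lower in all 3 pairs, which held for 10.2%. The log2 fold change of Irf2 was 0.13 (SE 0.094, 95% interval −0.096 to 0.36, limma adjusted p = 0.900), from paired changes of 0.14, 0.13 and 0.12. For Irf3 it was 0.15 (SE 0.10, 95% interval −0.10 to 0.40, limma adjusted p = 0.900), from paired changes of 0.0076, 0.082 and 0.36. For Irf5 it was 0.10 (SE 0.28, 95% interval −0.58 to 0.78, limma adjusted p = 0.962), from paired changes of 0.14, 0.030 and 0.14. The replicates of Irf5 differed more within a condition than the conditions did. With the replicate number as a block the Irf5 interval narrowed to −0.093 to 0.30 and still held 0. The block raised the rows at an unadjusted limma p of at most 0.05 from 543 to 988 (8.07% of all rows), and the members stayed at 0.

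The log2 fold change of Irf8 was 0.093 (SE 0.31, 95% interval −0.66 to 0.84, limma adjusted p = 0.966). That of Irf9 was 0.030 (SE 0.14, 95% interval −0.32 to 0.38, limma adjusted p = 0.974). Both had mixed signs over the pairs. For Irf4 the exact two-sided permutation test over 3 against 3 libraries gave p = 0.2, where 0.1 is the smallest it can give. The median log2 fold change over the 7 tested members was 0.093, beside 0.058 over all rows tested.

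**Figure D4:**
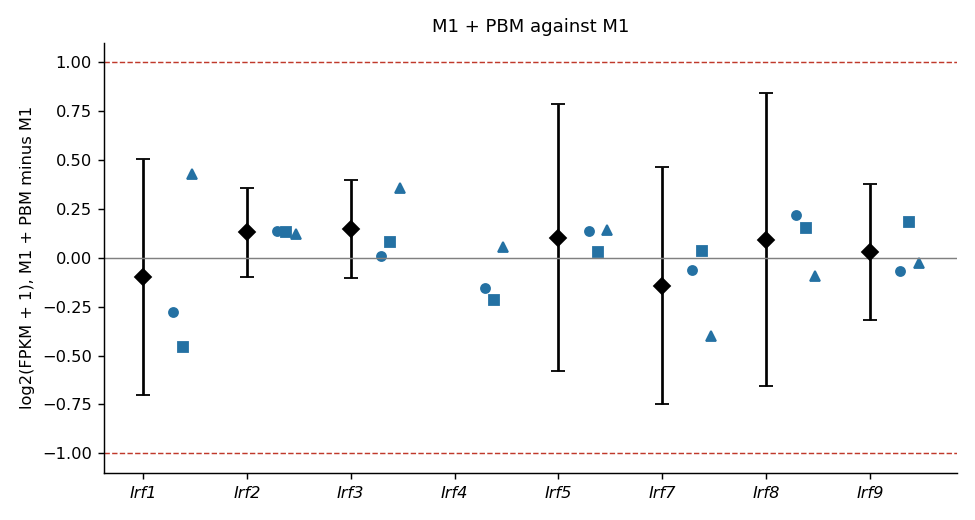
Log2 fold change of each IRF gene, M1 + PBM against M1. Black diamonds with bars are limma estimates with 95% intervals, blue symbols are the changes between libraries of the same replicate number (circle 1, square 2, triangle 3), and dashed lines mark a log2 fold change of 1 in size. Every interval held 0, and Irf4 was under the FPKM minimum and has symbols only.

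Replicate 3 had the highest Irf2, Irf5, Irf7, Irf8 and Irf9 of its group in both M1 and M1 + PBM. Irf1, Irf3 and Irf4 did not share this pattern, and its share over all rows was not computed. The cell type markers went both ways in these libraries. Of the 7 macrophage markers, Adgre1, Csf1r, Cd68, Lyz2 and Mertk were lowest in replicate 3 of both groups, and Itgam and Fcgr1 were highest. The dendritic cell marker Itgax was lowest, at FPKM of 4.18 and 7.08 against 12.1 to 34.2 in the others, while Xcr1 (0.57 and 0.45) and Clec9a (0.13 and 0.28) were highest, all under 1. The summed FPKM of the stromal markers was highest in replicate 3 of both groups, with replicate 1 near it in M1. In replicates 1, 2 and 3 it was 11.5, 8.42 and 12.1 in M1 and 20.9, 3.32 and 25.8 in M1 + PBM. The part of these in the IRF values was not tested.

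Members were also compared as ratios within a library, which depend less on its scaling than levels do. For Irf4, whose FPKM was under 1, the added 1 makes up most of the denominator, so ratios to Irf4 mainly follow the other gene. The log2 ratio of Irf7 to Irf3, each as FPKM + 1, had a mean of −1.22 ± 1.54 in M0, 4.89 ± 0.51 in M1 and 4.59 ± 0.19 in M1 + PBM (n = 3, SD). The log2 ratio of Irf1 to its competitor Irf2 was 0.65 ± 0.77, 2.01 ± 0.59 and 1.78 ± 0.14 in the same order. M0 replicate 3 had an Irf1 to Irf2 ratio of 1.53, above the 1.36 of M1 replicate 3, so M0 and M1 overlapped. Without M0 replicate 3 the difference of M1 from M0 was 6.99 in place of 6.11 for Irf7 to Irf3 and 1.80 in place of 1.36 for Irf1 to Irf2. The log2 ratio of Irf5 to Irf4 was 4.95 ± 0.14, 5.08 ± 0.50 and 5.29 ± 0.40. That of Irf8 to Irf4 was 3.70 ± 0.72, 3.16 ± 0.63 and 3.36 ± 0.34. Between M1 + PBM and M1 the 4 ratios differed by −0.29 for Irf7 to Irf3, −0.23 for Irf1 to Irf2, 0.21 for Irf5 to Irf4 and 0.20 for Irf8 to Irf4. In exact two-sided permutation tests p was 0.4 for Irf7 to Irf3 and 0.6 for the others, and 0.6 for all 4 after Benjamini-Hochberg adjustment. A design of 3 against 3 cannot go below 0.1.

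The genes that act with IRFs were followed in 6 lists, which held 107 genes, 98 of them tested. With PBM, 6 of the 98 had an unadjusted limma p of at most 0.05, where 4.44% of all rows did, and 11 had one with the replicate block, where 8.07% of all rows did. None had an adjusted p under 0.05. Of 21 sensors and kinases upstream of IRF3, IRF5 and IRF7, 1 was higher at this p (2.99% of all rows) and 0 lower (1.45%). It was Slc15a4, an endolysosomal transporter needed for IRF5 signaling from Toll-like receptors. Its FPKM was 6.67, 9.44 and 8.08 in M1 and 10.9, 10.6 and 10.5 in M1 + PBM. The libraries did not overlap, and the log2 fold change was 0.38 (SE 0.13, limma p = 0.0248, adjusted p = 0.900, exact permutation p = 0.1).

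Of the 8 genes tested for interferon receptors, JAK kinases and STAT2, 1 was higher and 0 lower. It was Ifngr1, the ligand-binding chain of the IFN-γ receptor, with FPKM of 8.73, 7.42 and 7.57 in M1 and of 12.4, 10.8 and 13.9 in M1 + PBM. All M1 + PBM libraries were above all M1 libraries, and the log2 fold change was 0.58 (SE 0.12, limma p = 0.00257, adjusted p = 0.900, exact permutation p = 0.1). Both conditions stood below the M0 mean FPKM of 22.5 ± 2.75 (SD, n = 3). The 4 interferon genes listed were under the minimum and not tested. Among them, Ifnb1 encodes interferon β, a type I interferon. It was listed at 0 in M0, and its mean FPKM was 0.447 ± 0.203 in the M1 libraries and 0.299 ± 0.149 with PBM.

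Of 17 tested partners and repressors of IRF factors, 0 were higher and 2 lower. Socs1, which inhibits JAK kinases, had FPKM of 16.3, 12.7 and 13.3 in M1 and of 7.15, 8.78 and 7.40 in M1 + PBM. The libraries were apart, with a log2 fold change of −0.78 (SE 0.13, limma p = 0.000727, adjusted p = 0.809, exact permutation p = 0.1). Tnfaip3, the ubiquitin-editing enzyme A20 that restrains NF-κB, had FPKM of 43.4, 38.6 and 54.3 in M1 and of 23.7, 38.3 and 25.9 in M1 + PBM. Its log2 fold change was −0.63 (SE 0.21, limma p = 0.0231, adjusted p = 0.900, exact permutation p = 0.1), and the nearest libraries of the groups were almost level.

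Of 22 targets of IRF1 and IRF8, 0 were higher and 1 lower at this p. It was Nos2, the inducible nitric oxide synthase, with FPKM of 290.0, 112.1 and 283.6 in M1 and of 88.1, 88.8 and 65.9 in M1 + PBM. It passed the thresholds of the study, with a log2 fold change of −1.38 (SE 0.38, limma p = 0.00972, adjusted p = 0.900, exact permutation p = 0.1). The median over the 22 targets was −0.11, with 6 above and 16 below 0, beside a median of 0.058 and 34.4% below 0 over all rows tested. The 21 targets other than Nos2 did not pass the test. Against M0 without a test, 20 of the 22 were at least 1 higher without overlap in M1 (7.81% of all rows) and also in M1 + PBM (7.13%). The counts were the same without M0 replicate 3 (8.82% and 7.98% of all rows).

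Of 24 targets of ISGF3 and IRF7, 0 had an unadjusted limma p of at most 0.05, and the median log2 fold change with PBM was −0.073, with 3 above and 21 below 0, beside 0.058 and 34.4% below 0 over all rows. Rsad2, the antiviral enzyme viperin, had FPKM of 771.2, 648.8 and 1091 in M1 and of 717.7, 592.8 and 665.5 in M1 + PBM. The libraries overlapped, with a log2 fold change of −0.32 (SE 0.21, limma adjusted p = 0.900). Isg15, a ubiquitin-like modifier, had a log2 fold change of −0.29 (SE 0.16, limma adjusted p = 0.900), with mean FPKM in M1 of 693.2 ± 116.4 and with PBM of 565.7 ± 68.1 (SD, n = 3). Its libraries did not overlap, with a lowest M1 value of 624.5 and a highest M1 + PBM value of 611.2 (exact permutation p = 0.1). Over the 13 alternatives the Rsad2 log2 fold change ran from −0.48 to −0.11, the latter without M1 replicate 3. That of Isg15 ran from −0.37 to −0.11, with −0.15 without M1 replicate 3. The counts above and below 0, here and for the IRF1 and IRF8 targets, were not repeated with single libraries left out. Against M0, 24 of the 24 targets were at least 1 higher without overlap in M1 (7.81% of all rows) and 23 in M1 + PBM (7.13%). Without M0 replicate 3 there were 24 in each (8.82% and 7.98% of all rows).

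Of 7 tested genes tied to IRF4 and alternative activation, 0 were higher and 1 lower with PBM. It was Kdm6b, a histone H3 lysine demethylase, with FPKM of 5.59, 2.79 and 8.13 in M1 and of 1.94, 2.36 and 3.11 in M1 + PBM. The libraries overlapped, and the log2 fold change was −0.83 (SE 0.32, limma p = 0.0388, adjusted p = 0.900, exact permutation p = 0.2).

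**Figure D5:**
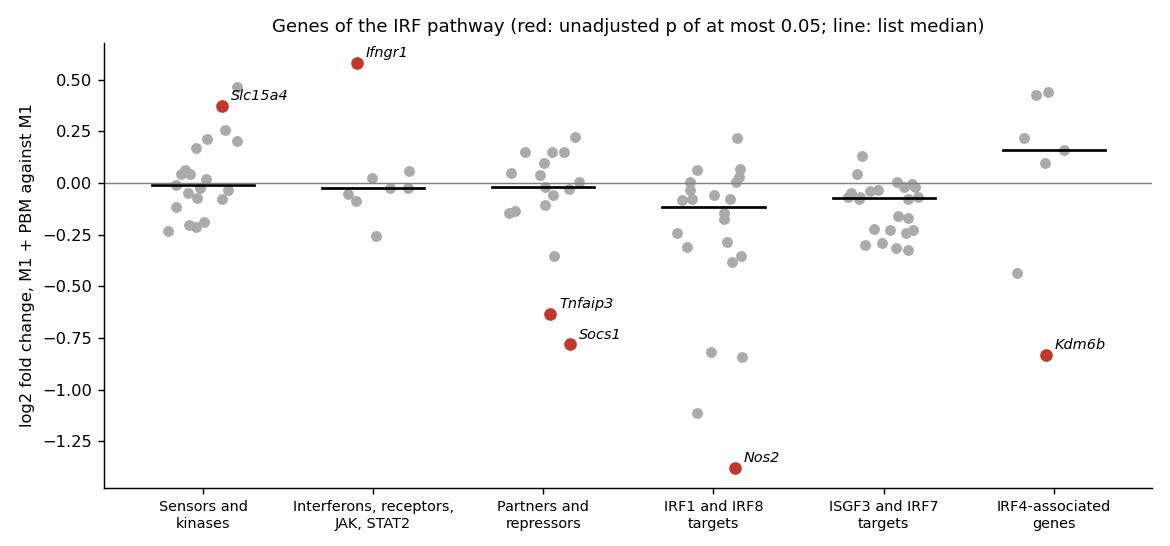
Log2 fold change of the tested genes of 6 lists around the IRF factors, M1 + PBM against M1, one point per gene. Red points had an unadjusted limma p of at most 0.05, black lines are list medians, and horizontal scatter within a list is for display. Nos2 lay at −1.38, Kdm6b at −0.83, Socs1 at −0.78, Tnfaip3 at −0.63, Ifngr1 at 0.58 and Slc15a4 at 0.38.

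Genes with the pattern most like Irf7 and Irf1 were sought by the root mean square difference of log2(FPKM + 1), centred on its mean, over the 9 libraries. For Irf7 they were Usp18, the protease that removes ISG15 from proteins, and Ifi209, a gene of the interferon-inducible PYHIN family, with differences of 0.17 and 0.19. Mean FPKM of Usp18 was 4.78 ± 5.87 in M0, 216.2 ± 72.9 in M1 and 163.1 ± 9.30 in M1 + PBM (n = 3, SD). For Irf1 they were Ralgds, an exchange factor for Ral GTPases, at 0.23, and Jdp2, a repressor that pairs with AP-1 factors, also at 0.23. Mean FPKM of Ralgds was 6.38 ± 1.86, 21.5 ± 3.56 and 18.5 ± 2.88 in the same order.

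Several members overlap other annotated genes in position, and whether counting used strand is not given in the sources used here. The bases given are shared between whole gene spans, introns included, and their exon part was not computed. Gm17334 lies opposite Irf1 over 907 bases, Bcl2l12 opposite Irf3 over 1065, Tnpo3 opposite Irf5 over 1045 and Phrf1 opposite Irf7 over 45. Irf2 has 3 genes on the opposite strand. Rnf31 shares 123 bases with Irf9 on the same strand and had mean FPKM of 6.46 in M0, 22.1 in M1 and 19.2 in M1 + PBM. Gm20388 spans Irf8 on the same strand and was listed at 0 in every library. The split of fragments between these genes was not tested.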

How the data were processed

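RNA was sequenced for 3 libraries each of M0, M1 and M1 + PBM macrophages. The authors deposited FPKM values in 2 tables of 55655 rows, 1 for the M0 libraries. The study's methods name Cufflinks methods, and the submitters' processing notes list Bowtie 0.12.2 and mm9. The row names are Ensembl identifiers, with 320 rows named MSTRG. The notes and identifiers were not reconciled, so GRCm38 annotation (GENCODE M21) served for symbols, given to 55154 rows, and overlaps, and RefSeq for promoters. Depth was estimated from steps of low FPKM values, 38.3% to 41.7% of which were whole multiples within 0.05 (10% if even), too few to recover reads.

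M1 + PBM was compared with M1 in limma 3.58.1 (R 4.3.3, trended eBayes) on log2(FPKM + 1). The pseudocount of 1 understates changes of low genes. Adjusted p-values are Benjamini-Hochberg over 12238 rows. The main fit did not pair the samples, and the labels name no pairing. Replicate numbers served as pairs only for the changes by replicate number and for the block. This use rested on these data, where deviations of same-numbered libraries from their group means correlated at 0.157, 0.469 and 0.462. The members, lists and tests were chosen with earlier results of these data known. From each list, genes at an unadjusted p of at most 0.05 were named, or else the 2 with the largest mean FPKM. For members differing by at least 1 between conditions, the 2 nearest profiles were named. Alternatives changed the pseudocount, filter, scaling, trend, block and libraries. A further gene of the interferon list is not reported here.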

Additional observations from a re-analysis of the deposited data

How the results depend on the processing

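With PBM, 0 members passed the thresholds of the study in each of the 13 alternatives of the limma fit. Over these the log2 fold change ran from −0.38 to 0.13 for Irf1, 0.056 to 0.18 for Irf2, 0.071 to 0.21 for Irf3, −0.12 to 0.31 for Irf5, −0.36 to 0.099 for Irf7, −0.12 to 0.40 for Irf8 and −0.092 to 0.14 for Irf9. Irf2 and Irf3 kept their sign. Irf9 turned to −0.046 with median-of-ratios scaling. The replicate block cannot alter a fold change in this balanced design. It raised the genes of the 6 lists at p of at most 0.05 from 6 to 11 of 98, and all rows from 4.44% to 8.07%. All rows past the thresholds numbered 32, and 75 with a pseudocount of 0.1, and the cause was not tested.

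Leaving out 1 library at a time reversed Irf1, Irf5, Irf7, Irf8 and Irf9 in at least 1 case, and the cause was not tested. The lowest and highest values so obtained were those given above for these 5 members. Differences of log2 ratios ran from −0.55 to 0.023 for Irf1 to Irf2, −0.039 to 0.46 for Irf5 to Irf4, −0.037 to 0.56 for Irf8 to Irf4 and −0.53 to −0.024 for Irf7 to Irf3. A pseudocount of 0.1 moved Irf5 to Irf4 from 0.21 to 0.62 and Irf8 to Irf4 from 0.20 to 0.62. Members at an unadjusted p of at most 0.05 numbered 0 to 1, the 1 being Irf1 without M1 replicate 3. Genes of the 6 lists at that p numbered 3 (without M1 + PBM replicate 1) to 11 (without M1 replicate 2), and all rows past the thresholds 27 to 89, namely 67 without M1 replicate 2 and, at the top, 89 when M1 + PBM replicate 2 was left out. Ifngr1, Socs1 and Nos2 kept an unadjusted p of at most 0.05 in 13 of 13 alternatives, Tnfaip3 in 10 of 13, Slc15a4 in 8 of 13 and Kdm6b in 7 of 12. The alternatives for list genes were chosen after seeing the data.

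Members at least 1 lower than M0 without overlap numbered 0 in M1, and 1 (Irf8) without M0 replicate 3 or M1 replicate 3. In M1 + PBM they numbered 0, and 1 (Irf4, at −1.25) with a pseudocount of 0.1.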
